A study of Mus musculus with 6 samples.

Results

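*Camk2a*, *Camk2b*, *Camk2d*, *Camk2g*, *Nrgn*, *Camk2n1* and *Camk4* were followed in brain RNA-seq libraries of mice that overexpressed the human lncRNA *AP1AR-DT*, listed in the labels as AC109347.1. They comprise the 4 CaMKII genes and 3 further calmodulin-signalling genes of forebrain neurons. They were taken as the rows whose gene symbol equals one of these names, which gave 7 of the 52390 mouse genes listed, and each of the 7 had enough counts to be tested. The libraries were from 3 control mice and 3 *AP1AR-DT* OE mice, all male C57BL/6 mice whose medial prefrontal cortex (mPFC) was injected with a recombinant adeno-associated virus (AAV) when they were 8 weeks old. The control mice received an empty AAV vector, and the study describes the mice injected with either vector as wild type. The *AP1AR-DT* OE mice received a vector with *AP1AR-DT* behind the neuronal human synapsin I promoter and EGFP behind the CMV promoter. The age at which tissue was taken is not given in the sources used here, and the tissue is named as brain in the labels, as mPFC in the study's results and as cortical tissue in its methods. As a model the group is limited to the neurons that the virus reached from the injection site, and the RNA was from bulk tissue. The labels could not be checked against *AP1AR-DT* itself, a human gene with no row in the table of mouse genes.

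CaMKII, the calcium/calmodulin-dependent protein kinase of excitatory synapses, is assembled into a holoenzyme from subunits encoded by *Camk2a*, *Camk2b*, *Camk2d* and *Camk2g*. Calcium entering through NMDA receptors loads calmodulin, which binds and activates the kinase, and autophosphorylation then keeps it active after calcium has fallen, a step known for its part in long-term potentiation. Neurogranin (*Nrgn*) holds calcium-free calmodulin in dendritic spines, CaMKII inhibitor 1 (*Camk2n1*) blocks the active kinase, and CaMKIV (*Camk4*) is a nuclear kinase that phosphorylates CREB. The comparison asks whether transcripts of this machinery differed between *AP1AR-DT* OE and control mice, in a study concerned with excitatory synapses.

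The CaMKII genes resemble each other, so it mattered whether reads of one could be assigned to another. The stretch shown here was picked as the most alike 75 bases within a coding exon of *Camk2b*, *Camk2d* and *Camk2g*. No other stretch within single coding exons was found to be more alike over the 3 genes. Stretches across exon borders were not compared. *Camk2a* was not part of that search. The stretch lies within the kinase part of the genes. It begins at base 604 of the coding sequence and lies in exon 9 of the longest protein-coding transcript of each gene (GENCODE vM21, GRCm38), at chr11:5989592-5989666 on the minus strand in *Camk2b*, chr3:126795366-126795440 on the plus strand in *Camk2d* and chr14:20764879-20764953 on the minus strand in *Camk2g*. Each is written 5′ to 3′ in the sense of the transcript, and capitals mark the 15 of 75 positions at which the 3 genes are not all the same.
Camk2b: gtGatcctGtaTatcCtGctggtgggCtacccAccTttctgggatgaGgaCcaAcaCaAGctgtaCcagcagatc
Camk2d: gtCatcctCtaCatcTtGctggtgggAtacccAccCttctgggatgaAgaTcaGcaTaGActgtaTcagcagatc
Camk2g: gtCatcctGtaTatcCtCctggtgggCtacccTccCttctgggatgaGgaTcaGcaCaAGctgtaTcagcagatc
Over these 75 bases *Camk2b* and *Camk2g* differ at 7 positions, *Camk2d* and *Camk2g* at 10, and *Camk2b* and *Camk2d* at 13. Between any pair of the 4 CaMKII genes the longest identical run in their transcripts was 23 to 34 bases. Of the windows of 100 bases in the longest protein-coding transcript of each of the 7 genes, 0 occurred in a transcript of another gene. Exons of *Camk4* overlap those of 1 other annotated gene, the antisense gene *2310026I22Rik*, which had 0 to 22 counts per library, against 242 to 730 for *Camk4*. Use of strand in the counting is not stated for these libraries, so reads of this antisense pair cannot be told apart.

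The 6 libraries held between 42061721 and 54668294 counts, and mitochondrial genes took 7.20% to 9.86% of them in control mice and 5.75% to 6.80% in *AP1AR-DT* OE mice. Values are given as normalized CPM, the deposited counts as CPM after scaling with TMM factors. The *AP1AR-DT* OE libraries are called A, B and C because their columns cannot be tied to single mice. edgeR's quasi-likelihood test was run on 21844 genes, and a gene was called when its *P* was under 0.05 and its absolute log2 fold change (Log2FC) above 0.32, the thresholds of the study. The libraries differed in markers of neurons and brain regions. Excitatory neuron markers without any of the 7 genes, averaged over 14 genes as log2 levels centred on the mean of the 6 libraries, stood at -0.641, -1.51 and 0.72 in controls 1, 2 and 3 and at 0.83, 1.32 and -0.726 in *AP1AR-DT* OE A, B and C. Defining cortical markers were near absent in some libraries: *Neurod6* was at 0.0803 normalized CPM in control 2 and 0.572 in OE C, against 23.0 in control 3. Hypothalamic markers were highest in control 2 (2.61 above the mean), with *Oxt* at 280.9 normalized CPM there and 0 in control 1. Choroid plexus and thalamic markers were highest in control 3 (3.98 and 2.27), and striatal markers in OE A (1.5), with control 2 lowest (-1.3). In bulk tissue, fewer cells of a type and less RNA per cell cannot be told apart.

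Of the 7 genes, 0 were called by edgeR, 0 had *P* under 0.05 and 0 had an adjusted *P* under 0.05. Over all genes tested 12.2% were called (5.1% higher and 7.15% lower), and 0.0275% had an adjusted *P* under 0.05. For each of the 7 the control and *AP1AR-DT* OE values overlapped, whereas the groups did not overlap in 22.4% of all genes tested (10.4% higher and 12% lower). DESeq2 called 1 of the 7, *Nrgn*, where it called 13.6% of all genes. Leaving out 1 library gave 1 call among the 7 without control 3, 1 without OE A and 2 without OE C, where 10.8%, 7.19% and 15.6% of all genes were called. Without control 1, control 2 or OE B, 0 of the 7 were called, against 15%, 9.79% and 6.33% of all genes. Leaving out control 2 and OE C together, the libraries with the lowest excitatory marker level of their groups, gave 2 calls against 12.7%. The other alternatives called 0 of the 7 and between 7.18%, after correction for GC content, and 13.9%, with at least 10 counts in every library, of all genes. Among them were 7.59% without controls 2 and 3, 9.14% with no filter on low counts, 9.26% with a covariate of excitatory markers, 11.8% without TMM factors and 11.9% after correction for transcript length. The Log2FC was above 0 for 5 genes and below 0 for *Camk2d* and *Camk4*, and its median over all genes tested was -0.0141. The plot of levels shows the value of each gene in every library.

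**Figure D1:**
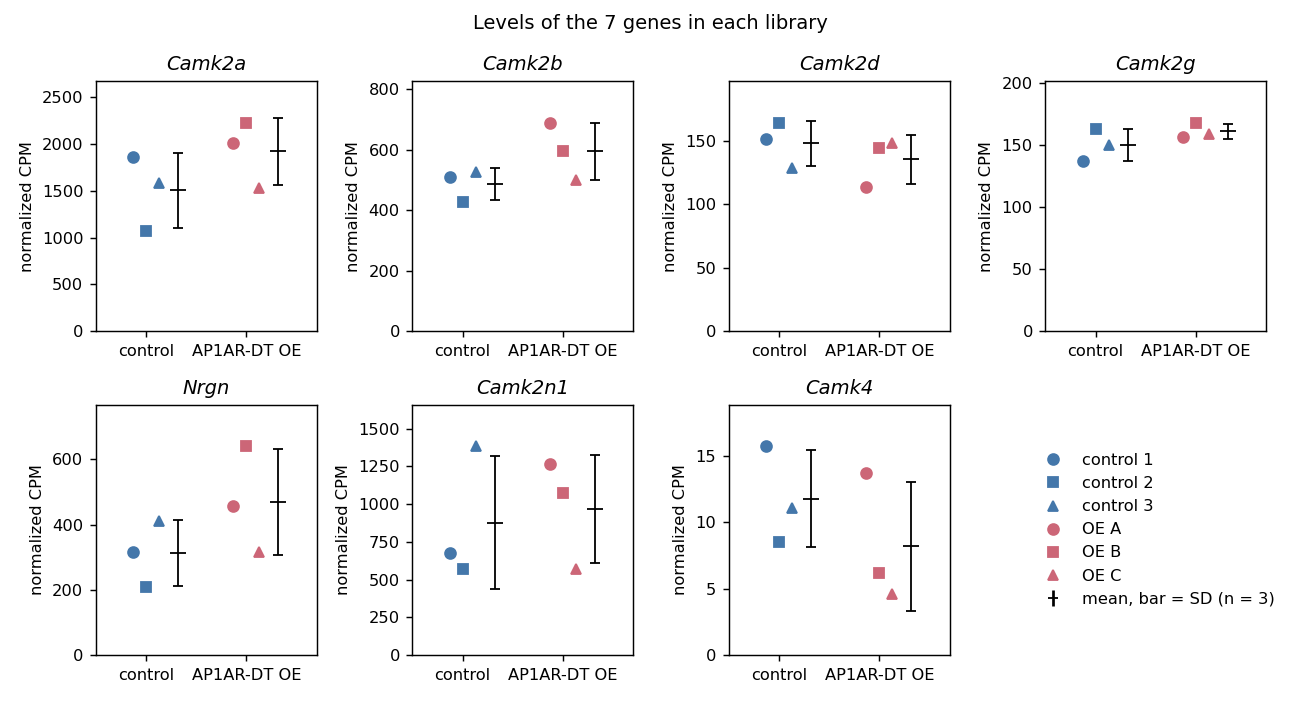
Normalized CPM (y axes, from 0) of each gene in 3 control libraries (blue) and 3 AP1AR-DT OE libraries (red), 1 symbol per library, with the group mean and SD (n = 3) in black. In every panel the groups overlap, and control 2 is the lowest library for Camk2a, Camk2b and Nrgn.

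*Camk2a* (ENSMUSG00000024617, chr18:60925618-60988152, plus strand) encodes the alpha subunit, the major CaMKII subunit of forebrain excitatory neurons. It stood at 1863, 1075 and 1587 normalized CPM in controls 1, 2 and 3 and at 2013, 2227 and 1529 in OE A, B and C. OE B and A were the highest libraries and control 2 the lowest, while OE C lay below controls 1 and 3, so the groups overlapped. The mean was 1508 ± 400.3 (SD, n = 3) in control and 1923 ± 358 (SD, n = 3) in *AP1AR-DT* OE mice. The Log2FC was 0.35 with a standard error of 0.228 (edgeR *P* = 0.168, adjusted *P* = 0.481, exact permutation *P* = 0.3). The 95% interval of the fold change ran from 0.878 to 1.85. Leaving out 1 library moved the Log2FC between 0.17 (without control 2) and 0.53 (without control 1), with 0.50 without OE C, and it was 0.05 without controls 2 and 3.

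*Camk2b* (ENSMUSG00000057897, chr11:5969644-6066362, minus strand) encodes the beta subunit, which also binds and bundles actin. Its levels were 510.3, 425.2 and 524.2 normalized CPM in controls 1 to 3 and 688.5, 595.3 and 499.5 in OE A, B and C. OE A and B were above all controls, and OE C lay between controls 1 and 2. The mean was 486.6 ± 53.58 (SD, n = 3) in control and 594.5 ± 94.5 (SD, n = 3) in *AP1AR-DT* OE mice. The Log2FC was 0.29 with a standard error of 0.145 (edgeR *P* = 0.0853, adjusted *P* = 0.383, exact permutation *P* = 0.3), and the interval of the fold change ran from 0.965 to 1.55. Without OE C it was called, at a Log2FC of 0.41 (edgeR adjusted *P* = 0.232), and also without both control 2 and OE C, at 0.32 (edgeR adjusted *P* = 0.363). Without OE A the Log2FC was 0.17 and without control 2 it was 0.21.

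*Camk2d* (ENSMUSG00000053819, chr3:126596302-126846326, plus strand) and *Camk2g* (ENSMUSG00000021820, chr14:20734875-20794088, minus strand) encode the delta and gamma subunits, which are made in many tissues beside brain. *Camk2d* stood at 151, 164 and 128.7 normalized CPM in controls 1 to 3 and at 113.1, 144 and 148.2 in OE A, B and C. *Camk2g* stood at 137.8, 163.3 and 150 in controls 1 to 3 and at 156.7, 168.3 and 159.5 in OE A, B and C. These genes varied least among the 7: the highest library was 1.45 times the lowest for *Camk2d* and 1.22 times for *Camk2g*, and control 2, low in *Camk2a* and *Camk2b*, was the highest library for *Camk2d* and the next to highest for *Camk2g*. The Log2FC of *Camk2d* was -0.13 with a standard error of 0.139 (edgeR *P* = 0.379, adjusted *P* = 0.674, exact permutation *P* = 0.5), and its fold change had an interval from 0.728 to 1.15. That of *Camk2g* was 0.10 with a standard error of 0.0925 (edgeR *P* = 0.303, adjusted *P* = 0.613, exact permutation *P* = 0.3), with an interval from 0.923 to 1.25. The sign for *Camk2d*, whose transcript had the lowest GC content of the 7 (43.9%), turned to a Log2FC of 0.04 after correction for GC content.

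*Nrgn* (ENSMUSG00000053310, chr9:37544492-37552904, minus strand), the calmodulin-binding protein neurogranin of dendritic spines, had the largest Log2FC of the 7 in size in edgeR's fit without correction or covariate and with all libraries. It stood at 316.2, 208.2 and 410.2 normalized CPM in controls 1, 2 and 3 and at 456.9, 639.5 and 314.9 in OE A, B and C. OE B and A were the highest libraries, but OE C lay just below control 1 and below control 3. The mean was 311.5 ± 101.1 (SD, n = 3) in control and 470.4 ± 162.7 (SD, n = 3) in *AP1AR-DT* OE mice, with a 1.97-fold range among controls and a 2.03-fold range among *AP1AR-DT* OE libraries. The Log2FC was 0.59 with a standard error of 0.314 (edgeR *P* = 0.0997, adjusted *P* = 0.402, exact permutation *P* = 0.3), and the interval of the fold change ran from 0.904 to 2.52. DESeq2 gave nearly the same Log2FC of 0.60 but called the gene (DESeq2 adjusted *P* = 0.227). By edgeR it was called without control 3 (Log2FC 0.86), without OE C (0.83) and without both control 2 and OE C (0.60), and in no other alternative. The Log2FC was 0.38 without control 2 and 0.31 without OE B. In several alternatives that of *Camk4* was larger in size. Among them were the fits without control 2 (-0.70), without OE B (-0.36) and without OE A (-1.12, against 0.62 for *Nrgn*). The same held after correction for GC content (-0.49 against 0.37) or transcript length (-0.58 against 0.54), and with the covariate of excitatory markers. Over all 16 alternatives the adjusted *P* was between 0.227 and 0.785.

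*Camk2n1* (ENSMUSG00000046447, chr4:138454314-138460123, plus strand), which encodes an endogenous inhibitor of CaMKII, split both groups. Its levels were 674.4, 573 and 1383 normalized CPM in controls 1, 2 and 3 and 1266, 1071 and 571.9 in OE A, B and C. Control 3, OE A and OE B were high, and controls 1 and 2 and OE C were low, so that each group held libraries of both kinds. The mean was 876.8 ± 441.4 (SD, n = 3) in control and 969.8 ± 358.2 (SD, n = 3) in *AP1AR-DT* OE mice. The Log2FC was 0.15 with a standard error of 0.401 (edgeR *P* = 0.727, adjusted *P* = 0.884, exact permutation *P* = 1), and the interval of the fold change ran from 0.575 to 2.13. The sign changed with the libraries used: the Log2FC was -0.01 without control 1, -0.08 without control 2, -0.09 without OE A and 0.65 without control 3.

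*Camk4* (ENSMUSG00000038128, chr18:32934931-33191228, plus strand), the CREB kinase, was the gene with the fewest counts. It stood at 15.7, 8.53 and 11.1 normalized CPM in controls 1, 2 and 3 and at 13.8, 6.21 and 4.61 in OE A, B and C. OE B and C were below all controls, whereas OE A lay between controls 1 and 3. The mean was 11.8 ± 3.65 (SD, n = 3) in control and 8.20 ± 4.89 (SD, n = 3) in *AP1AR-DT* OE mice. The Log2FC was -0.52 with a standard error of 0.426 (edgeR *P* = 0.259, adjusted *P* = 0.577, exact permutation *P* = 0.3), and the interval of the fold change ran from 0.347 to 1.40. Without OE A the gene was called, at a Log2FC of -1.12 (edgeR adjusted *P* = 0.62), and without OE C the Log2FC was -0.22.

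**Figure D2:**
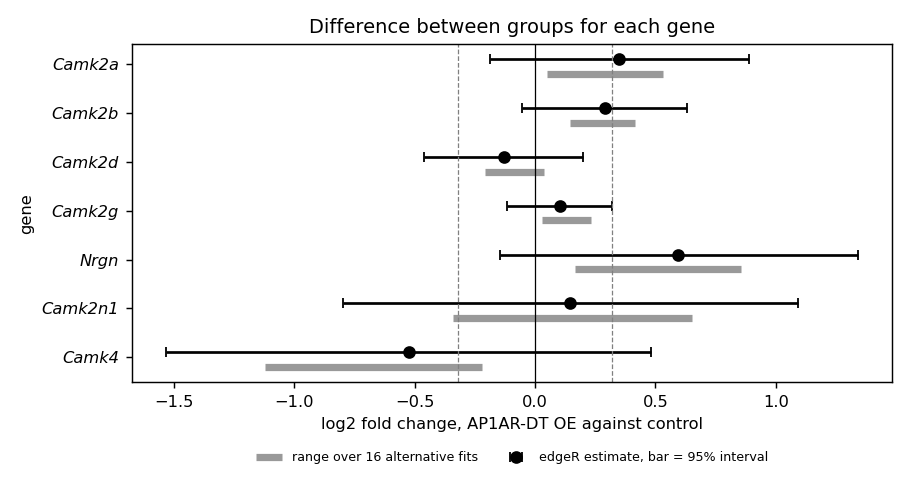
Log2FC of AP1AR-DT OE against control (x axis) for each gene (y axis), with edgeR's estimate and its 95% interval in black and the range over 16 alternative fits in grey; dashed lines mark the threshold of 0.32 on either side. Each of the 7 intervals includes 0, and the grey ranges of Camk2d and Camk2n1 lie on both sides of 0.

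Levels of different genes were compared per length, as normalized CPM per kb of the longest protein-coding transcript. From 53.4% (*Camk2g*) to 76.6% (*Camk2n1*) of these transcripts lay in the longest exon, and median exons of the CaMKII genes were 76 to 84 bases. Where reads are not aligned across introns, short exons add few counts, so full length is a rough divisor between genes. The effect on these levels and on the shares below was not tested. In control mice *Camk2a* had the highest level per kb, 303.5 ± 80.54 (SD, n = 3), followed by *Nrgn* at 214.4 ± 69.57, *Camk2n1* at 197.3 ± 99.33 and *Camk2b* at 121 ± 13.32. *Camk2g* followed at 40.6 ± 3.45, *Camk2d* at 26.8 ± 3.23 and *Camk4* at 4.34 ± 1.34 normalized CPM per kb (SD, n = 3 each). The order was the same in *AP1AR-DT* OE mice, from 386.9 ± 72.03 for *Camk2a* down to 3.02 ± 1.80 for *Camk4* (SD, n = 3). The ranges of mean ± SD overlapped between neighbours from *Camk2a* down to *Camk2b*, and did not overlap between *Camk2b*, *Camk2g*, *Camk2d* and *Camk4*, in either group. With the median length of the protein-coding transcripts instead, *Camk2a* remained first, *Camk2d* and *Camk4* last, and *Camk2b* was second at 252.9 ± 27.85 per kb in control mice.

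As a share of the summed CaMKII level per kb, *Camk2a* made up 66.2%, 54.6% and 62.2% in controls 1, 2 and 3 and 63.4%, 67.1% and 61.3% in OE A, B and C. The mean share was 61.0% ± 5.87 (SD, n = 3) in control and 63.9% ± 2.95 (SD, n = 3) in *AP1AR-DT* OE mice (exact permutation *P* = 0.5). *Camk2b* made up 24.8% ± 2.21 and 24.6% ± 2.32, *Camk2g* 8.54% ± 2.36 and 7.34% ± 1.08, and *Camk2d* 5.62% ± 1.63 and 4.15% ± 1.09 (SD, n = 3 each; exact permutation *P* = 0.8, 0.7 and 0.3). Control 2 stood apart, with the lowest share of *Camk2a* and the highest of *Camk2d* and *Camk2g*. With median transcript lengths the share of *Camk2a* was 69.5% and 72.2%. The mean share of each CaMKII gene differed between groups by less than between libraries of the same group.

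**Figure D3:**
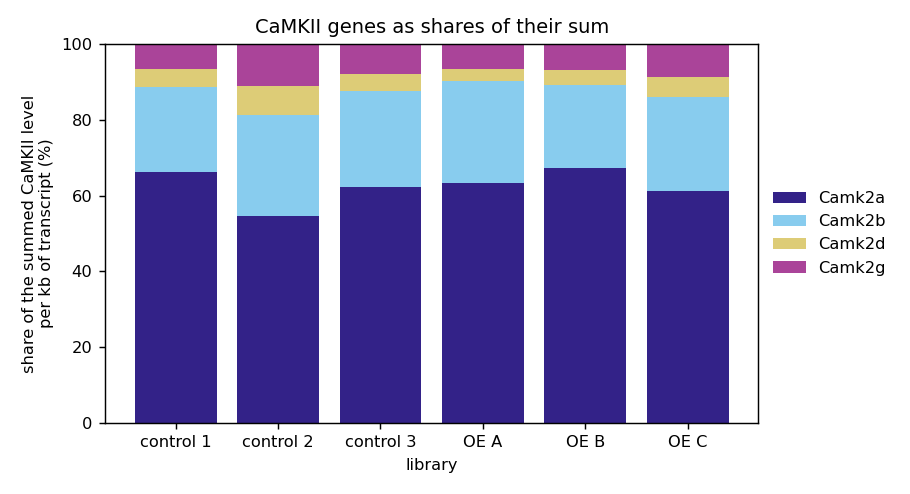
Share of each CaMKII gene in the summed level per kb of longest protein-coding transcript (y axis, percent, from 0) in each library (x axis). Camk2a makes up 54.6% to 67.1% in the 6 libraries, with the lowest share in control 2.

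Ratios of counts within a library, which do not depend on scaling, overlapped between the groups as well. The log2 ratio of *Camk2a* to *Camk2b* was 1.60 ± 0.265 in control and 1.69 ± 0.189 in *AP1AR-DT* OE mice (SD, n = 3; exact permutation *P* = 0.7). The ratio of inhibitor to kinase, *Camk2n1* to *Camk2a*, was -1.47, -0.91 and -0.20 on the log2 scale in controls 1, 2 and 3 and -0.67, -1.06 and -1.42 in OE A, B and C. The *AP1AR-DT* OE values lay within the range of the controls, with a difference of -0.19 and a standard error of 0.426 (exact permutation *P* = 0.7). The difference was -0.50 with a standard error of 0.385 for *Camk2d* to *Camk2a*, -0.26 with 0.339 for *Camk2g* to *Camk2a*, and 0.22 with 0.229 for *Nrgn* to *Camk2a*. Their exact permutation *P* were 0.3, 0.7 and 0.4, and adjusted over the 5 ratios all were 0.7, where 3 mice against 3 cannot give less than 0.1 before adjustment.

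Across libraries, *Nrgn*, *Camk2n1* and *Camk2b* had the same 3 highest libraries as the excitatory marker list, control 3, OE A and OE B. The profile plot shows the remaining genes departing from that order: *Camk2a* was higher in control 1 than in control 3, *Camk2d* was lowest in OE A, *Camk2g* was lowest in control 1 and *Camk4* was highest there. The highest library was 2.07 times the lowest for *Camk2a*, 3.07 times for *Nrgn* and 2.42 times for *Camk2n1*, against 120 times for *Slc17a7*, the vesicular glutamate transporter of cortical excitatory neurons. Markers of the list differed widely in this, from 1.99 times for *Lmo4*, 2.10 for *Nptx1* and 2.44 for *Chn1* to 287 times for *Neurod6*. *Slc17a7* was at 28.2, 3.86 and 233.1 normalized CPM in controls 1, 2 and 3 and 230.6, 463.3 and 87.2 in OE A, B and C, so that control 2 kept 1075 normalized CPM of *Camk2a* at the lowest level of this marker. The exact permutation *P* for a group difference in the excitatory list was 0.3. With its level as a covariate in edgeR's model, the Log2FC of *Nrgn* was 0.17 with a standard error of 0.128 (edgeR adjusted *P* = 0.629), of *Camk2a* 0.12 (adjusted *P* = 0.837), of *Camk2b* 0.15 (adjusted *P* = 0.663) and of *Camk2n1* -0.34 with a standard error of 0.179 (adjusted *P* = 0.519). *Camk4* was at -0.83 in that fit (edgeR adjusted *P* = 0.561), *Camk2g* at 0.11 and *Camk2d* at -0.01, and 0 of the 7 were called. *Camk2a* and *Camk4* had control 1 and OE A among their 3 highest libraries, the libraries in which striatal markers were highest (0.633 and 1.5). The part of either marker list in these differences was not tested beyond the covariate.

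**Figure D4:**
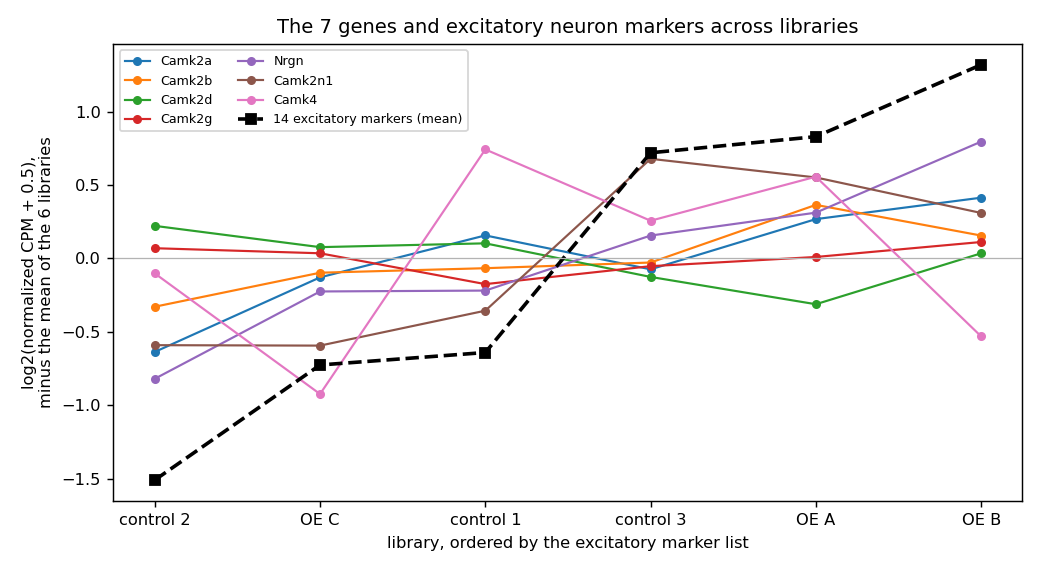
Log2(normalized CPM + 0.5) minus the mean of the 6 libraries (y axis) for each gene (coloured) and for the mean of 14 excitatory neuron markers (black, dashed), with libraries ordered by that list (x axis); lines join the points of a gene and imply no sequence. Nrgn and Camk2n1 are high in control 3, OE A and OE B, where the marker list is also high, while Camk2d stays between -0.312 and 0.222.

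For each gene the nearest profiles among 12030 other protein-coding genes were found from the root mean square difference of centred log2 levels over the 6 libraries. The nearest to *Camk2a* were *Gadd45b*, a stress-inducible gene, at 0.037 and *Mgll*, the lipase that degrades the endocannabinoid 2-AG, at 0.0403. *Mgll* was at 248, 149.1 and 228.1 normalized CPM in controls 1, 2 and 3 and at 287.2, 299.7 and 210.4 in OE A, B and C. *Nrgn* was nearest to *Hopx* (0.0975), which stood at 40.3, 23.1 and 45.2 normalized CPM in controls 1, 2 and 3 and at 52.6, 84.8 and 36.2 in OE A, B and C. *Hopx* was thus lowest in control 2 and highest in OE B, as *Nrgn* was. *Camk2n1* was nearest to *Itgb1bp1* (0.0941) and *Arhgap22* (0.0986), *Camk2b* to *Stat2* (0.0438) and *Tst* (0.0488), *Camk2d* to *Scx* (0.0318) and *St8sia6* (0.0371), and *Camk2g* to *Alkbh5* (0.0219) and *Sfxn2* (0.0253). *Camk4* had no near neighbour of this kind, with *Magoh* at 0.249 and *Adcyap1r1* at 0.264. Among the 7 genes themselves, *Camk2d* and *Camk2g* (0.19) and *Camk2a* and *Camk2b* (0.193) were closest, and *Nrgn* and *Camk4* (0.792) farthest apart. This measure is small wherever both genes vary little. The SD of the log2 level over the 6 libraries was 0.19 for *Camk2d* and 0.102 for *Camk2g*, against 0.373 for *Camk2a* and 0.237 for *Camk2b*. *Camk2d* and *Camk2g* were thus as far apart as the spread of *Camk2d* itself, and their lowest libraries differed (OE A and control 1).

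*Calm2* and *Calm3* encode calmodulin, which activates these kinases, and both groups of mice held similar levels of them. *Calm3* stood at 1294, 1087 and 1358 normalized CPM in controls 1, 2 and 3 and at 1421, 1508 and 1312 in OE A, B and C, so that OE C lay between controls 1 and 3. The Log2FC was 0.18 for *Calm3* and 0.08 for *Calm2*, with standard errors of 0.119 and 0.123. Their adjusted *P* by edgeR were 0.486 and 0.798. The direction turned for *Calm3* after correction for GC content and for *Calm2* without controls 2 and 3.

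Over the 7 lists of calmodulin signalling genes, 94 of 95 genes were tested, and 9 were called higher and 3 lower in *AP1AR-DT* OE mice. The 2 directions together made 12.8%, against 12.2% of all genes, with 9.57% higher against 5.1% and 3.19% lower against 7.15%. The median Log2FC was 0.0744, and the smallest adjusted *P* by edgeR was 0.295. Among 16 other CaM kinases and relatives, *Camkk1* and *Camkk2*, the kinases that activate CaMKI and CaMKIV, were called higher (12.5%, against 12.2% of all genes called in either direction). *Camkk2* stood at 85.6, 63.1 and 79.6 normalized CPM in controls 1, 2 and 3 and at 131.2, 106.2 and 91.5 in OE A, B and C. All *AP1AR-DT* OE libraries lay above all controls, and the Log2FC was 0.53 with a standard error of 0.168 (edgeR adjusted *P* = 0.295). Without OE A the *Camkk2* Log2FC was 0.38 and the call was lost, as it was without controls 2 and 3 (0.36). *Camkk1* just passed, with a Log2FC of 0.32 (edgeR adjusted *P* = 0.329), and was lost without control 1 (0.25), control 2 (0.30), OE A (0.27) or OE B (0.27).

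Of 15 calcineurin subunits, calcineurin regulators and phosphatases that act on CaMKII, 2 were called (13.3%, against 12.2% of all genes). They were catalytic subunits of protein phosphatase 1, both called higher, *Ppp1ca* (Log2FC 0.35, edgeR adjusted *P* = 0.296) and *Ppp1cc* (0.34, edgeR adjusted *P* = 0.309). Leaving out control 2 or OE A ended the call of both (0.32 and 0.25 for *Ppp1ca*, 0.27 and 0.23 for *Ppp1cc*), as did leaving out OE B for *Ppp1ca* (0.33) and control 1 for *Ppp1cc* (0.36). Correction for transcript length also ended both calls (0.29 for *Ppp1ca* and 0.28 for *Ppp1cc*), as did leaving out controls 2 and 3 (0.32 and 0.31). *Ppp1cb*, which also encodes a catalytic subunit of protein phosphatase 1, went the other way. Only its Log2FC of -0.314, under 0.32 in size, kept it from being called lower. Its levels were 232, 227.5 and 261.9 normalized CPM in controls 1, 2 and 3. In OE A, B and C they were 193.8, 184.1 and 202.4, each below every control. Of 15 tested small calmodulin-binding and inhibitor proteins, only *Rgs2*, a regulator of G-protein signalling, was called, and it was lower (6.67%, against 12.2% of all genes). *Rgs2* stood at 90.5, 79.1 and 3.84 normalized CPM in controls 1, 2 and 3 and at 9.64, 6.42 and 11.0 in OE A, B and C. Controls 1 and 2 were thus far above the other libraries, and control 3 was below all *AP1AR-DT* OE libraries. The Log2FC of -2.68 had a standard error of 0.948 (edgeR adjusted *P* = 0.296), and the call was lost when any 1 library other than control 3 was left out (-2.83 to -2.20). Among 7 calmodulin-stimulated cyclases and phosphodiesterases 0 were called, and 0 had *P* under 0.05 by edgeR. *Pde1b* had the smallest *P*, with a Log2FC of 0.68 (edgeR adjusted *P* = 0.424), and it was called without control 1 at 0.99 (edgeR adjusted *P* = 0.303). It stood at 218.5, 100.1 and 154.1 normalized CPM in controls 1, 2 and 3 and at 393.5, 188.1 and 176.4 in OE A, B and C, and the Log2FC was 0.45 without control 2 and 0.21 without OE A, the highest library.

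Of 22 partners and substrates of CaMKII at the postsynaptic density, 2 were called higher and 1 lower (13.6% together, against 12.2% of all genes). The higher genes were *Dlg4* (Log2FC 0.34, edgeR adjusted *P* = 0.309), which encodes the scaffold PSD-95, and *Synpo* (1.34, adjusted *P* = 0.295), which encodes synaptopodin of the spine apparatus. *Synpo* stood at 47.3, 57.0 and 42.6 normalized CPM in controls 1, 2 and 3 and at 161.5, 167.5 and 44.1 in OE A, B and C, so that OE A and B carried the difference and OE C lay among the controls. *Kcnd2*, a potassium channel subunit, was lower (-0.47, edgeR adjusted *P* = 0.296), with every control above every *AP1AR-DT* OE library. Leaving out OE B ended the call of all 3, at 0.29 for *Dlg4*, 1.07 for *Synpo* and -0.36 for *Kcnd2*. The calls of *Dlg4* and *Synpo* were also lost without OE A (0.29 and 1.11), that of *Dlg4* without control 2 (0.30), and that of *Synpo* without control 1 (1.32). Without control 3 the calls of *Dlg4*, *Synpo* and *Kcnd2* were lost (0.31, 1.27 and -0.30), and without OE C that of *Kcnd2* (Log2FC -0.47).

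Of 17 genes of CaMKIV and CREB transcription, *Crtc1*, *Mef2d* and *Srf* were called higher and *Creb1* lower (23.5%, against 12.2% of all genes). In each of these 4 the groups did not overlap, as in 22.4% of all genes tested. That is no separate evidence, since the 4 were picked by their *P* in the same libraries. *Creb1*, which encodes the transcription factor that CaMKIV phosphorylates, stood at 37.4, 39.0 and 43.2 normalized CPM in controls 1, 2 and 3 and at 29.4, 30.9 and 22.3 in OE A, B and C. The Log2FC of *Creb1* was -0.53, with a standard error of 0.145 (edgeR adjusted *P* = 0.295). *Crtc1*, a CREB coactivator released by calcineurin, had a Log2FC of 0.42 (edgeR adjusted *P* = 0.295), *Mef2d* 0.33 (adjusted *P* = 0.295) and *Srf* 0.43 (adjusted *P* = 0.295). *Creb1* and *Crtc1* were called whichever single library was left out but not without controls 2 and 3 together (-0.44 and 0.25), whereas *Srf* was lost without OE A (0.36) and *Mef2d* without control 2, OE A or OE B (0.28, 0.28 and 0.32). After correction for GC content, however, the 4 had Log2FC of -0.23, 0.25, 0.19 and 0.10 for *Creb1*, *Crtc1*, *Mef2d* and *Srf*, and 0 were called. The same correction ended the calls of *Camkk1*, *Ppp1ca* and *Kcnd2* and left those of *Camkk2*, *Ppp1cc*, *Rgs2*, *Dlg4* and *Synpo*. With the excitatory marker level as a covariate, 9 of the 12 calls in these lists were lost, among them those of *Camkk2* (0.39), *Ppp1cc* (0.26), *Rgs2* (-1.12), *Dlg4* (0.26) and *Synpo* (0.84), and those of *Kcnd2* (-0.53), *Creb1* (-0.69) and *Crtc1* (0.37) were not.

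**Figure D5:**
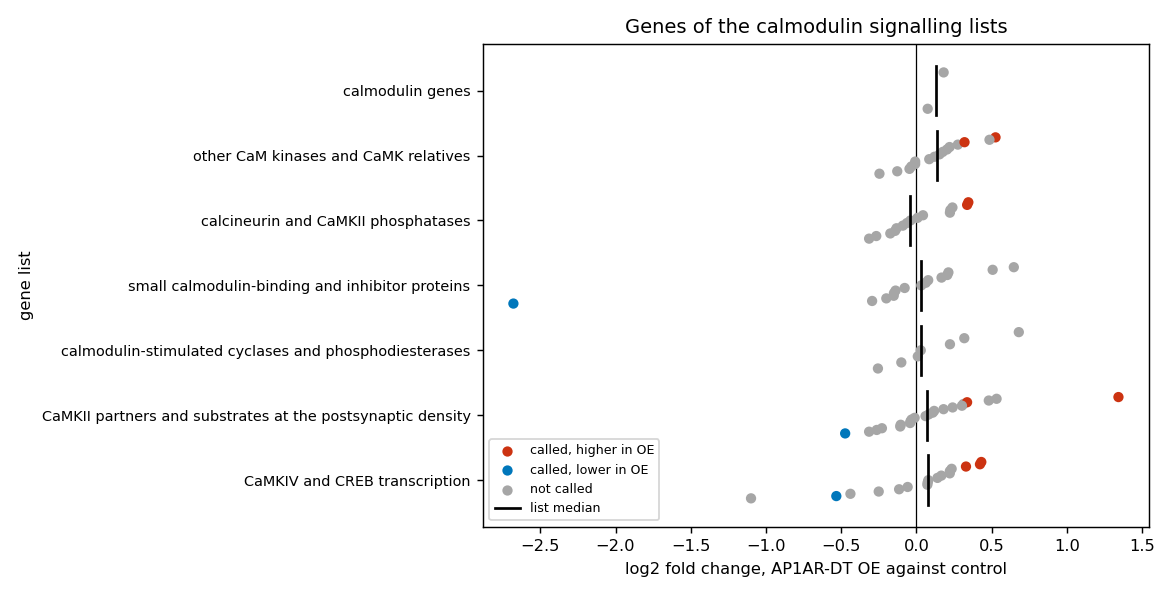
Log2FC of AP1AR-DT OE against control (x axis) for the 94 tested genes of the 7 calmodulin signalling lists (y axis), with genes called higher in red, called lower in blue and others in grey, and the list median as a black line. The list medians lie between -0.0388 and 0.138, and 12 genes are called.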

How the data were processed

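RNA-seq of brain tissue from 3 control and 3 *AP1AR-DT* OE mice was analysed. Per its methods, the study mapped reads to GRCm38 with Bowtie2 at default settings, which aligns no read across an intron, and took gene counts from StringTie with the GENCODE annotation. The submitters' processing notes in the labels name other tools (TopHat2 2.0.4, HTSeq, Cuffdiff, edgeR 2.6.12) and the build mm9, and which of them apply to these libraries was not resolved. The whole-number counts per gene were deposited by the authors without normalization. The authors also deposited a mean normalized signal over all mice, a log2 fold change with its standard error, a Wald score and a p-value with its adjusted value from DESeq2; none of these was used.

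Counts were tested in R 4.3.3 with edgeR 4.0.16 (filterByExpr, TMM, quasi-likelihood F-test, two-sided, Benjamini-Hochberg over 21844 genes). Exact permutation tests, two-sided, used log2(normalized CPM + 0.5) over all 20 splits, with a smallest *P* of 0.1, or the share or log2 ratio itself. The p-values set a group difference against the spread between 3 mice per group, which edgeR estimates with help from the other genes. That spread includes the differences in regional and cell type markers between libraries. Every pair of libraries differed beyond sampling noise (chi-square per gene at least 45.5, where noise alone gives about 1). Alternatives were DESeq2 1.42.0, its size factors, totals without TMM, other filters on low counts, natural-spline corrections (5 degrees of freedom) for GC content or length of the longest transcript, leaving out libraries, and an excitatory marker covariate. Gene coordinates, lengths, GC content and sequences are from GENCODE vM21. The model was checked on simulated counts. Figures used Python 3.11.15 and matplotlib 3.10.9.

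The 7 genes, the pathway and marker lists and the alternatives were chosen with earlier results of these data known. The genes named are the 7, each pathway gene called, *Calm2* and *Calm3*, the gene with the smallest *P* of a list without a call, and the nearest profiles, at most 2, of each of the 7. *Ppp1cb* was added beside *Ppp1ca* and *Ppp1cc* because it went the other way. A few genes that this rule or the lists would include are not reported here, and counts over the lists leave them out.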

Additional observations from a re-analysis of the deposited data

How the results depend on the processing

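No paired analysis was possible because the labels give the groups only 1 mouse number in common, and the *AP1AR-DT* OE columns cannot be tied to single mice. Of the 7 genes, 0 were called by edgeR, and 1 by DESeq2. Leaving out 1 library at a time gave 0 to 2, and leaving out control 2 and OE C together, an alternative chosen after seeing the data, gave 2. The number of genes called over the whole table was 2675, and 1430 to 3508 with 1 library left out. The pathway lists held 12 calls, and 4 to 20 with 1 library left out. Correction for GC content gave 1566 calls over the whole table, 6 in the pathway lists and 0 of the 7 genes, and without controls 2 and 3 the lists held 7. The cause of these shifts was not tested.

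*Camk2d* turned to 0.037 with GC correction. *Camk2n1* lay between -0.092 and 0.65 with 1 library left out, below 0 without control 1 (-0.011), control 2 (-0.076) or OE A, and turned to -0.34 with the excitatory covariate. *Calm2* turned to -0.11 without controls 2 and 3, and *Calm3* to -0.021 with GC correction. Of the log2 ratios, the difference for *Camk2a* to *Camk2b* was 0.09, with -0.045 to 0.22 when 1 library was left out, -0.18 without controls 2 and 3 and -0.0078 without control 2 and OE C. That of *Camk2g* to *Camk2a* was -0.26, with -0.50 to 0.023 and 0.20 without controls 2 and 3. That of *Camk2n1* to *Camk2a* was -0.19, with -0.49 to 0.14 and 0.42 without controls 2 and 3. The other ratios kept their direction in all alternatives run.

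With 3 mice per group, a common biological coefficient of variation of 0.313 and marker levels that differ between mice, intervals of the fold change such as 0.904 to 2.52 (*Nrgn*) and, the widest of the 7, 0.347 to 1.40 (*Camk4*) leave differences of that size undetectable rather than absent. Depth was not limiting for 6 of the genes, which had at least 5606 counts in every library, and *Camk4* had 242 to 730.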

Other observations

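Markers of glia, vessels and interneurons varied less between libraries than those of excitatory neurons. Averaged as centred log2 levels, the astrocyte list lay between -0.127 and 0.226, with 1 of 8 genes called lower. The microglia list lay between -0.246 and 0.317, with 3 of 8 called higher, among them the complement genes *C1qa* and *C1qb*. The list of endothelial and mural cells lay between -0.213 and 0.356, with 2 of 8 tested genes called higher. The oligodendrocyte list was highest in control 3 (0.733), where its summed level was 10960 normalized CPM against 5249 to 5330 in *AP1AR-DT* OE mice, and 2 of 8 were called lower. The interneuron list was lowest in control 3 (-0.563) and highest in OE B (0.433), with 1 of 8 called higher. In the hypothalamic, thalamic and choroid plexus lists 5 of 9, 3 of 8 and 6 of 8 tested genes were called lower, where 7.15% of all genes were. Of the excitatory list 2 of 14 genes were called higher, *Itpka* and *Baiap2*, where 5.10% of all genes were, and of the 9 striatal genes 0 were called and 0 had *P* under 0.05 by edgeR. The part of these lists in the levels of the 7 genes was not tested, beyond the covariate of excitatory markers.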
